A study of Mus musculus with 20 samples.

Results

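The expression of 10 macrophage genes was examined in mouse kidney tumors and in normal kidney. The genes were selected by name as markers of tissue macrophages, both resident and tumor-associated: Csf1r, Adgre1, C1qa, C1qb, C1qc, Trem2, Mrc1, Cd163, Lyz2 and Cd68. They are 10 of the 54532 genes in the count table, and all 10 were among the 15354 genes with enough counts to be tested. RNA was sequenced in bulk from 10 tumors and 10 normal kidneys of C57BL/6 mice carrying a Lox-Stop-Lox Cas9-EGFP allele at ROSA26 and a Pax8 Cre transgene, so that Cas9 is made in cells that express Pax8, among them tubule epithelium. The tumors arose after a Cre-less adeno-associated virus (AAV) with sgRNAs against Vhl, Pbrm1, Keap1 and Tsc1 was injected into the kidney. The normal kidneys came from the same cohort of 10 mice and carry the same Cas9 and Cre alleles. The age of the animals at collection is not given in the sources used here. The mice are immunocompetent, and macrophages, which do not derive from Pax8-expressing cells, are host cells in this model.

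Macrophages are phagocytes that live in every tissue, and the kidney holds a dense network of them between its tubules. Their survival depends on CSF1R, a receptor tyrosine kinase that binds the cytokines CSF1 and IL34. F4/80, the product of Adgre1, is the classic surface marker of mouse macrophages. The 3 C1q chains assemble into the recognition unit of the classical complement pathway and are made mainly by macrophages. Other members serve uptake and disposal of material: MRC1 binds mannose-bearing glycoproteins, CD163 takes up haptoglobin-hemoglobin complexes, TREM2 senses lipids and signals through the adaptor TYROBP, LYZ2 is the lysozyme of myeloid cells, and CD68 is a glycoprotein of late endosomes and lysosomes. In bulk tissue, fewer cells of a type and less RNA per cell cannot be told apart, and this holds for every level given here.

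All 10 are protein-coding genes, placed here on the GRCm38 assembly by the coordinates in the count table. The C1q genes lie side by side on the minus strand of chromosome 4, within 18.7 kb from 136880129 to 136898803, in the order C1qb, C1qc and C1qa. Adgre1 (chr17:57358691-57483527) and Trem2 (chr17:48346401-48354147) are both on the plus strand of chromosome 17. Cd68 is at chr11:69664213-69666153 and Lyz2 at chr10:117277331-117282321, both on the minus strand. Mrc1 (chr2:14229392-14332057), Cd163 (chr6:124304656-124330527) and Csf1r are on the plus strand of their chromosomes. Csf1r overlaps Hmgxb3 on the opposite strand by 871 bases, and whether reads were assigned by strand is not given in the sources used here. Hmgxb3 itself differed by a log2 fold change of 0.04 between tumors and normal kidneys (adjusted p = 0.809, edgeR quasi-likelihood test). Lyz2 has a near-identical neighbour, Lyz1, which stood at 0 to 1.75 CPM (a count scaled by the normalized size of its library) in all 20 libraries. How reads that match both genes were assigned is not given in the sources used here.

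Myeloid genes are commonly controlled by PU.1, the product of Spi1, a transcription factor whose preferred purine-rich site has the core GAGGAAG. Promoter sequences of RefSeq on GRCm38.p6, each from 250 bases before to 50 after the transcription start, were searched for 7 of the 10 members. The core was present on either strand in 3 of these 7, those of C1qc, Trem2 and Mrc1, against 13.6% of all 32851 promoters of the same length. It begins 194 bases before the start in C1qc, 41 bases before it in Trem2, and 168 and 36 bases before it in Mrc1. It is not in the windows of C1qb, Cd68, Lyz2 and Cd163. Adgre1 and C1qa have no entry, and Csf1r was left out of the search. The upstream stretches of 250 bases of 3 members are shown in the direction of transcription, with the core (CTTCCTC when read on the other strand) in capitals. C1qc and Trem2 stand for members that hold the core, and Cd68 is the member whose values differed most between tumors and normal kidneys. They are C1qc at chr4:136892915-136893164 (minus strand), Trem2 at chr17:48346151-48346400 (plus strand) and Cd68 at chr11:69666171-69666420 (minus strand).
C1qc: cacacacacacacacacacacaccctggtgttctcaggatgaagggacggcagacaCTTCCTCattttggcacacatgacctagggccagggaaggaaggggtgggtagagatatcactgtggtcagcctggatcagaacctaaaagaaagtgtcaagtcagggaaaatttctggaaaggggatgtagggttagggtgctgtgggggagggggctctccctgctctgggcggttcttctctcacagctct
Trem2: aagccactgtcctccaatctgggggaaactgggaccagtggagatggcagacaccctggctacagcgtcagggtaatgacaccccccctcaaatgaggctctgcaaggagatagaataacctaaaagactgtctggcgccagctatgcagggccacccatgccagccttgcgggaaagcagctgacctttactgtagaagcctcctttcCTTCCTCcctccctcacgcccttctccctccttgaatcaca
Cd68: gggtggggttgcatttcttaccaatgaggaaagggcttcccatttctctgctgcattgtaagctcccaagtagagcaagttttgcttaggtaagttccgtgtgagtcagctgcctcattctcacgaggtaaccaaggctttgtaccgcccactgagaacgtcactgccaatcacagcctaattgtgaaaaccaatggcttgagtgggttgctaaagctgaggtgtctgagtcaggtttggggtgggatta

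Total counts ranged from 18447394 to 24902973 in tumors and from 14737516 to 26679704 in normal kidneys. Several libraries stood apart from the rest of their group. Tumor 7 had fibroblast genes at a summed 7010 CPM, against 125 to 531 CPM in the other 9 tumors, and neutrophil genes at 531 CPM, against 4.33 to 39.8 CPM. Normal kidney 9 had a normalization factor of 0.749, where the rest of the group lay between 1.03 and 1.14, and its genes with under 1500 bases of exon lay at a median of 1.05 log2 units above the group mean while those with over 5000 bases lay 0.67 below (-0.67). Normal kidneys 5, 7 and 8 had tubule injury genes (Havcr1, Lcn2, Sox9, Vcam1, Krt20) at 3056, 5086 and 2040 summed CPM, against 28.2 to 316 CPM in the other 7. Values are given with and without single libraries, or tumor 7 and normal kidney 9 together, where these decide a result. Kidneys 5, 7 and 8 were not left out together in any fit of tumors against normal kidneys.

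**Figure D1:**
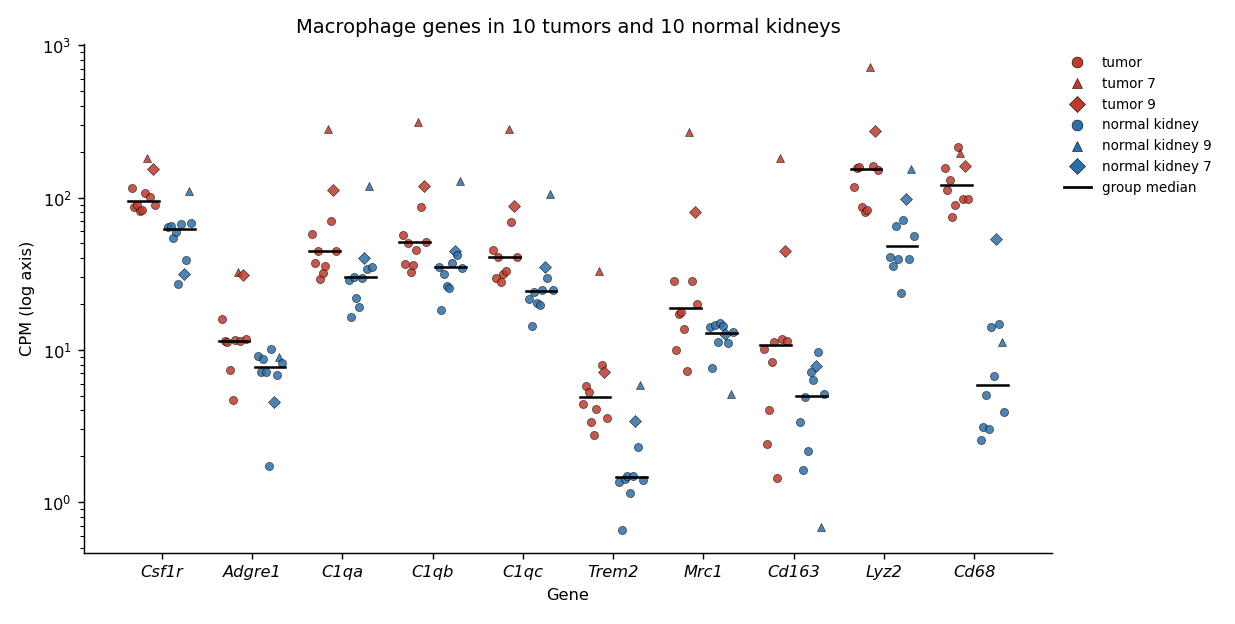
Level of each macrophage gene in CPM (y axis, logarithmic) in every library, with genes on the x axis, 10 tumors in red and 10 normal kidneys in blue. Black bars are group medians, and triangles and diamonds mark tumors 7 and 9 and normal kidneys 9 and 7. Only for Cd68 do the groups not overlap, and tumor 7 is the highest tumor for the other 9 genes.

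Expression of 8 of the 10 macrophage genes was higher in tumors than in normal kidneys, and 0 were lower. Of all genes tested, 23.6% were higher and 23.8% lower at the same threshold, an adjusted p of 0.05 by edgeR's quasi-likelihood test over 15354 genes. The median log2 fold change of the 10 was 1.395, against -0.02 over all genes. The other 2, C1qa and C1qb, missed the threshold, and C1qc passed it narrowly. In 1 of the 10, Cd68, the lowest tumor exceeded the highest normal kidney, a separation seen in 5.87% of all genes tested. For the other 9 the groups overlapped. Tumor 7 was the highest tumor for all of these 9, and without it 6 of the 10 genes were called, C1qc and Cd163 dropping out with C1qa and C1qb. Without normal kidney 9, all 10 were called.

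Csf1r, the receptor on which macrophage survival depends, was higher in tumors by a modest fold. Its level ranged from 81.3 CPM (tumor 4) through a median of 95.4 to 183 CPM (tumor 7) in tumors, and from 26.9 CPM (kidney 5) through 61.8 to 111 CPM (kidney 9) in normal kidneys. Each of the 10 tumors lay above the median of the normal kidneys, but only 3 above the highest of them. The difference was 1.86-fold (log2 0.89, SE 0.22, adjusted p = 0.002). It held when any single library was left out, at log2 0.78 to 1.04. Among normal kidneys, kidneys 5, 7 and 8 were lowest, at 26.9, 31.7 and 38.8 CPM. These are the kidneys with high tubule injury genes, and they were not left out together.

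Adgre1, which encodes F4/80, rose by much the same amount. It ranged from 4.71 to 32.6 CPM with a median of 11.5 in tumors, and from 1.74 to 10.1 CPM with a median of 7.71 in normal kidneys. Tumors 7 and 9 reached 32.6 and 31.1 CPM, and no other tumor exceeded 15.95 CPM. There were 8 tumors above the highest normal kidney, while tumors 4 and 5, at 7.36 and 4.71 CPM, lay among the normal kidneys. The fold was 2.06 (log2 1.04, SE 0.32, adjusted p = 0.0116), and it was 0.83 to 1.15 on the log2 scale with any 1 library left out. Kidneys 5, 7 and 8 were again the lowest normal kidneys, at 1.74, 4.57 and 6.83 CPM, and were not left out together.

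The C1q genes, whose products form the complement component C1q, moved together, and their call depended on single libraries. C1qa ranged from 29.4 to 284 CPM in tumors (median 44.8) and from 16.4 to 119 CPM in normal kidneys (median 29.9). C1qb ranged from 32.6 to 315 CPM in tumors (median 50.9) and from 18.2 to 129 CPM in normal kidneys (median 34.8). C1qc ranged from 28.0 to 284 CPM in tumors (median 40.5) and from 14.3 to 106 CPM in normal kidneys (median 24.3). In all 3 genes tumor 7 was the highest tumor and normal kidney 9 the highest normal kidney, and tumor 7 was the only tumor above kidney 9 for C1qb and C1qc as for C1qa. The log2 fold changes were 1.00 for C1qa (SE 0.43, adjusted p = 0.0601), 0.97 for C1qb (SE 0.42, adjusted p = 0.0617) and 1.11 for C1qc (SE 0.44, adjusted p = 0.0438). Without tumor 7 they fell to 0.46, 0.43 and 0.50, with adjusted p of 0.256, 0.269 and 0.21. Without normal kidney 9 they were 1.41, 1.35 and 1.55, with adjusted p of 0.00574, 0.00713 and 0.0037. C1qc was called in 8 of the 20 fits that leave out 1 library and lost its call without tumor 7, 8 or 9 or without any normal kidney other than kidney 9, while C1qa and C1qb gained theirs without tumor 2, 4 or 5 or kidney 9. With both tumor 7 and kidney 9 left out the values were 0.84, 0.78 and 0.90, with adjusted p of 0.00651, 0.00864 and 0.00189. The C1q genes have 1040 to 1931 bases of exon in the table, and kidney 9 is the library in which short genes stood high; its part in the C1q values was not tested.

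The scavenger receptors Mrc1 and Cd163 spread more widely over tumors than any other member. Mrc1 ranged from 7.29 CPM (tumor 6) to 269.8 CPM (tumor 7) in tumors with a median of 18.8, and from 5.15 CPM (kidney 9) to 14.97 CPM (kidney 5) in normal kidneys with a median of 12.98. Cd163 ranged from 1.45 CPM (tumor 6) to 181 CPM (tumor 7) in tumors with a median of 10.7, and from 0.69 CPM (kidney 9) to 9.71 CPM (kidney 8) in normal kidneys with a median of 5.02. After tumor 7, tumor 9 was next for both, at 80.5 CPM of Mrc1 and 44.7 CPM of Cd163, and the remaining 8 tumors did not exceed 28.4 and 11.8 CPM. The genes have 6371 and 5461 bases of exon, and kidney 9, lowest for both, is the library in which long genes stood low. Its part in these values was not tested. The fitted folds were 4.14 for Mrc1 (log2 2.05, SE 0.55, adjusted p = 0.00446) and 5.84 for Cd163 (log2 2.55, SE 0.74, adjusted p = 0.00744). Both values rested to a large part on tumor 7. Without it Mrc1 stood at log2 1.06 (adjusted p = 0.0151) and Cd163 at 1.26 (adjusted p = 0.052), and DESeq2 on all libraries gave 0.98 (adjusted p = 0.00981) and 1.18 (adjusted p = 0.0343). In limma-voom neither passed, with adjusted p of 0.0698 for Mrc1 and 0.122 for Cd163. The edgeR test with the shared sample numbers as a block did not call them either (adjusted p = 0.0975 and 0.121).

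Trem2, the lipid-sensing receptor, was the scarcest member, and its level was higher in tumors. It ranged from 2.77 to 32.9 CPM in tumors (median 4.87) and from 0.66 to 5.91 CPM in normal kidneys (median 1.45). All 10 tumors lay above the median of the normal kidneys, and 3 of them, tumors 7, 8 and 9, above kidney 9, the highest. The fold was 3.76 (log2 1.91, SE 0.47, adjusted p = 0.00198). It was 1.26 on the log2 scale without tumor 7 (adjusted p = 0.00352) and 2.25 without normal kidney 9.

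Lyz2, the myeloid lysozyme, was the most abundant member per length of transcript in both groups. It ranged from 81.0 to 721 CPM in tumors (median 154) and from 23.5 to 154 CPM in normal kidneys (median 48.3). Every tumor lay above the median of the normal kidneys, and 5 lay above kidney 9, the highest of them at 154 CPM. The fold was 3.20 (log2 1.68, SE 0.41, adjusted p = 0.00192). Leaving out tumor 7 lowered it to log2 1.18 (adjusted p = 0.00327).

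Cd68 stood apart from the other members in size, in separation and in the libraries that carried it. Its level ranged from 74.7 CPM (tumor 4) through a median of 121 to 216 CPM (tumor 6) in tumors, and from 2.55 CPM (kidney 1) through 5.88 to 53.8 CPM (kidney 7) in normal kidneys. The fold was 11.2 (log2 3.48, SE 0.51, adjusted p = 8.37e-06). Tumor 7, highest for the other 9 genes, came after tumor 6 here, at 196 CPM, and leaving it out changed the log2 fold change only to 3.40. Tumor 6 was the lowest of the tumors for Mrc1 and Cd163. Among normal kidneys, kidneys 7, 8 and 5 were highest for Cd68, at 53.8, 14.9 and 14.1 CPM, and the same 3 were lowest for Csf1r, at 31.7, 38.8 and 26.9 CPM. These are the kidneys with tubule injury genes at 2040 to 5086 summed CPM, and their proximal tubule genes summed to 1280 to 2955 CPM, against 7411 CPM or more in the other 7. Without kidney 7 the log2 fold change of Cd68 was 4.21.

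**Figure D2:**
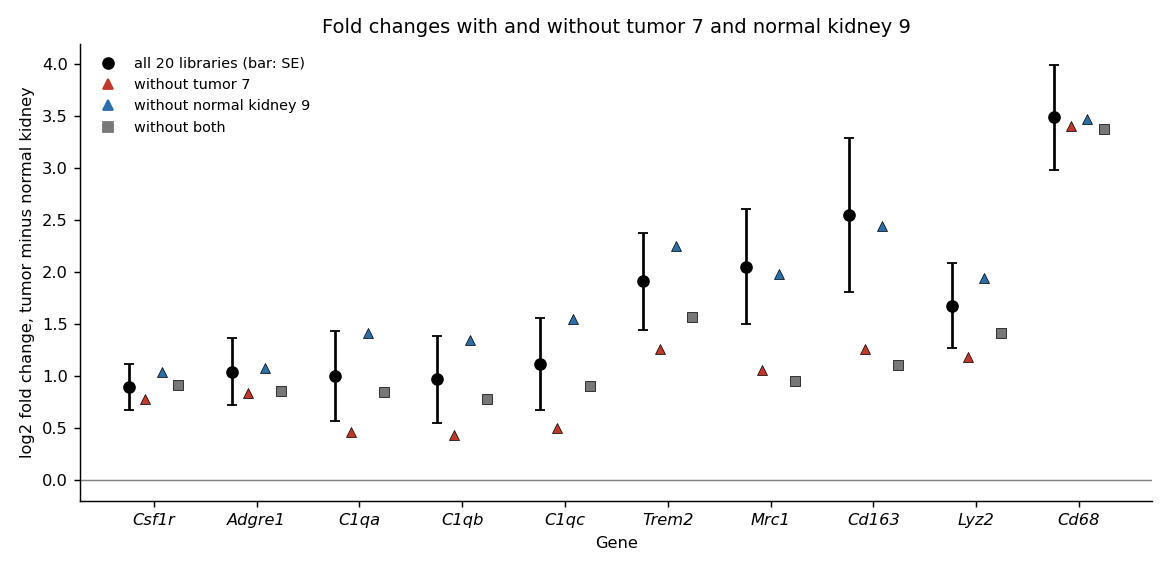
Log2 fold change of each macrophage gene, tumors against normal kidneys (y axis), for all 20 libraries with its standard error (black), without tumor 7 (red), without normal kidney 9 (blue) and without both (grey). Cd68 stays between 3.37 and 3.48 in all 4 settings, while the C1q genes, Mrc1 and Cd163 move most.

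Levels per kilobase of exon gave the order of the members within a group. The exon length in the table joins all isoforms of a gene, so the position of a gene with long minor isoforms is a low estimate. In tumors Lyz2 was first, at 151 ± 146 CPM per kb (mean ± SD, n = 10), followed by Cd68 (106 ± 37.7), C1qb (76.3 ± 78.8), C1qa (71.9 ± 74.5) and C1qc (35.8 ± 40.4). Csf1r followed at 22.3 ± 6.91, and Mrc1 (7.74 ± 12.6), Cd163 (5.25 ± 10.1), Adgre1 (4.61 ± 2.90) and Trem2 (1.56 ± 1.82) were lowest. Ranked by their mean log2 levels, only the steps from C1qa to C1qc and from Csf1r to Mrc1 exceeded the SD of the difference within a tumor, so other neighbours in that order do not differ beyond their spread. In normal kidneys Lyz2 was again first, at 47.4 ± 29.5 CPM per kb, before C1qb (39.0 ± 28.9), C1qa (36.0 ± 28.5), C1qc (16.6 ± 13.7) and Csf1r (12.0 ± 4.87). Cd68 came sixth there, at 9.42 ± 12.3 CPM per kb. It was below Csf1r in 7 of the 10 normal kidneys, and above it in every tumor. Trem2 was last in both groups. Steps beyond the spread in normal kidneys were those from C1qb to C1qa, from C1qa to C1qc and from Mrc1 to Cd163. The step from C1qb to C1qa barely passed there (log2 0.142, SD 0.14), against 0.09 (SD 0.117) in tumors. It was positive in 8 of the 10 libraries of each group, so the groups are not shown to differ in it.

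To ask whether a member changed by more than the macrophage receptor itself, each gene's log2 CPM was taken relative to that of Csf1r in the same library. Only Cd68, 1 of the 9 other members, was higher in tumors on this scale, by log2 3.14 (SE 0.49, limma adjusted p = 4.39e-06), where 4.72% of 15353 genes were higher. None of the 9 (0) was lower, where 65.7% of all genes were lower, with Csf1r itself higher in tumors. The other 8 members did not pass in either direction. Trem2 (0.72, SE 0.36, adjusted p = 0.076) and Lyz2 (0.58, SE 0.30, adjusted p = 0.0884) came nearest. Both passed when kidney 7 was left out, at 0.91 (adjusted p = 0.021) and 0.76 (adjusted p = 0.0173), and Trem2 also when kidney 9 was, at 0.80 (adjusted p = 0.0464). Cd163 (0.46, SE 0.63) and Mrc1 (0.20, SE 0.43) had wide errors, and Adgre1 (-0.02), C1qc (-0.04), C1qa (-0.12) and C1qb (-0.17) lay near 0. With Ptprc, which encodes the leukocyte antigen CD45, as the reference in place of Csf1r, Cd68 (3.88), Trem2 (1.45) and Lyz2 (1.31) were higher.

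**Figure D3:**
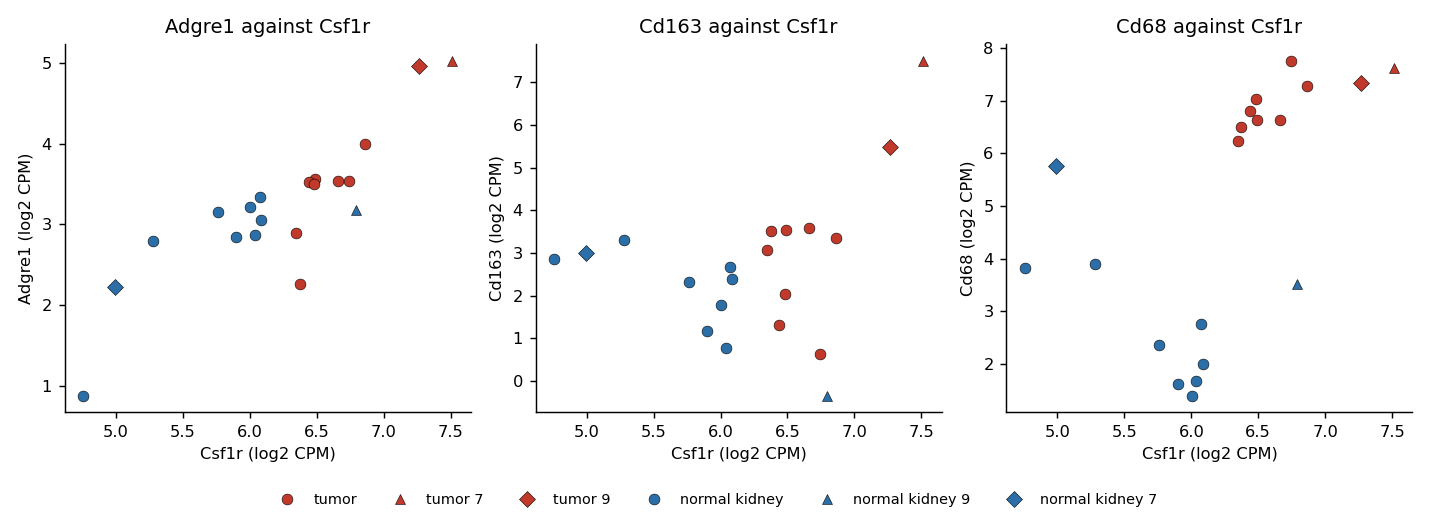
Adgre1, Cd163 and Cd68 (y axes, log2 CPM) against Csf1r (x axes, log2 CPM), 1 point per library, tumors in red and normal kidneys in blue. Adgre1 follows Csf1r in both groups, and in Cd68 the tumors form a separate cloud above every normal kidney. Cd163 falls to 0.69 CPM in normal kidney 9, the normal kidney with the most Csf1r and the one in which long genes stood low.

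Across libraries of 1 group, members were compared with Csf1r in 18 correlations, 9 in tumors and 9 in normal kidneys, with p-values from 100000 permutations adjusted over the 18. In tumors all 9 members rose with Csf1r, with Pearson's r from 0.75 (Cd163 and Cd68) to 0.93 (C1qa) and adjusted p of 0.00324 to 0.0404. By ranks 5 passed, Adgre1, C1qa, C1qb, C1qc and Cd68 (Spearman's rho 0.83 to 0.94, adjusted p 0.00432 to 0.0174), and Mrc1, Lyz2, Cd163 and Trem2 did not (adjusted p 0.0949 to 0.221). Tumors 7 and 9 are the farthest from the median of Csf1r. Without them r was 0.72 for Adgre1 and 0.77 for Cd68, 0.54 to 0.64 for the C1q genes and 0.355 for Trem2. It was 0.21 for Mrc1, 0.07 for Lyz2 and -0.12 for Cd163, so for these 3 the relation rests on tumors 7 and 9.

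In normal kidneys the relation to Csf1r held for Adgre1 alone among the 9 in the positive direction. Its r was 0.80 (adjusted p = 0.00927) and its rho 0.76 (adjusted p = 0.0436), and r was 0.52 without kidneys 5 and 7, the farthest from the median of Csf1r. Cd163 ran the other way, with r of -0.78 (adjusted p = 0.0131, permutation test) and rho of -0.65 (adjusted p = 0.0949). Its r was -0.80 without kidneys 5 and 7 and -0.63 without kidney 9. Cd68 had r of -0.565 (adjusted p = 0.142, permutation test), which became -0.84 without kidney 9 and -0.06 without kidneys 5 and 7. The C1q genes, Lyz2, Mrc1 and Trem2 did not pass, with r of -0.60 to 0.50.

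Ratios within a library, which do not depend on the scaling between libraries, were compared for 5 pairs of genes with a 2-sided permutation test of 100000 resamples. Trem2 was compared with Tyrobp, the adaptor through which it signals. On a log2 scale corrected for length, the ratio of Trem2 to Tyrobp was -4.13 ± 0.38 (mean ± SD, n = 10) in tumors and -5.21 ± 0.35 in normal kidneys. The lowest tumor, at -4.54, lay above the highest normal kidney, at -4.61, so the groups did not overlap. The difference was 1.07 (SE 0.16, p = 2e-05, the smallest that these permutations can give, adjusted p = 0.0001 over the 5 pairs). It was 0.98 to 1.14 with any library left out. Tyrobp itself did not pass the test between groups (log2 0.78, SE 0.48, adjusted p = 0.185), although without kidney 9 it did, at 1.24. Hcst, which encodes the adaptor DAP10, did not pass (0.60, SE 0.38, adjusted p = 0.204) and likewise passed without kidney 9, at 1.05.

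The proportions of the 3 C1q chains varied less between libraries than the level of any of them. C1qa stood to C1qb at -0.09 ± 0.12 in tumors and -0.14 ± 0.14 in normal kidneys, a difference of 0.05 (permutation p = 0.372). C1qc stood to C1qb at -1.13 ± 0.10 in tumors and -1.27 ± 0.13 in normal kidneys, a small difference of 0.14 that passed the test (SE 0.05, permutation p = 0.0125, adjusted p = 0.0313). C1qa stood to C1qc at 1.04 ± 0.14 and 1.13 ± 0.15 (permutation p = 0.212). In tumor 7 and in normal kidney 9, where C1q levels were highest, the ratios of C1qa to C1qb were within the range of the other libraries. Those of C1qc to C1qb were the highest of their group there, at -0.975 in tumor 7 and -1.12 in kidney 9, and the ratio of C1qa to C1qc in tumor 7, at 0.89, was the lowest of the tumors. Cd163 against Mrc1 varied far more, at -1.04 ± 0.68 in tumors and -1.30 ± 0.79 in normal kidneys, and the difference of 0.26 did not pass (SE 0.33, permutation p = 0.436).

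**Figure D4:**
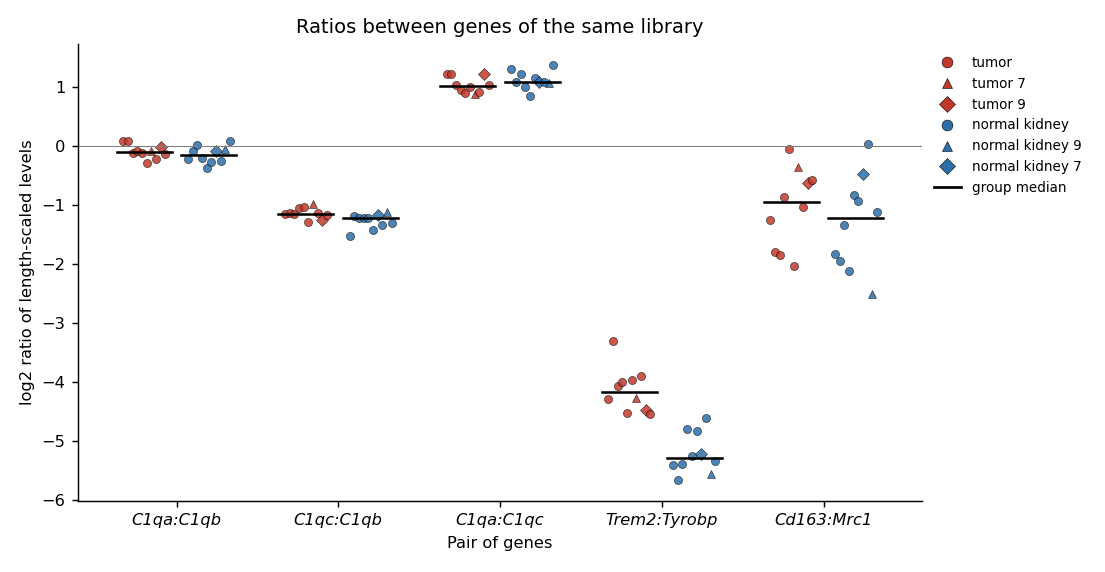
Log2 ratio of the length-scaled levels of 2 genes of the same library (y axis) for 5 gene pairs (x axis), tumors in red and normal kidneys in blue, with group medians as black bars. The ratio of Trem2 to Tyrobp separates all tumors from all normal kidneys, the C1q ratios spread least within a group, and the ratio of Cd163 to Mrc1 spreads most, from -2.51 to 0.04 in normal kidneys.

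Ligands, adaptors and substrates of the members changed in both directions. Of 25 such partner genes 20 were tested, 10 of them higher and 2 lower in tumors, beside 23.6% and 23.8% of all genes, with a median log2 fold change of 0.99. Of the ligands of the CSF1 receptor, Csf1 had a median of 25.5 CPM in the tumors, against 17.9 CPM in normal kidneys (log2 0.67, SE 0.24, adjusted p = 0.0258), and without tumor 7 the difference fell to 0.43 and no longer passed. Il34, the other ligand, did not pass (0.28, SE 0.61, adjusted p = 0.732). Downstream of TREM2, the kinase Syk was called at 1.18 (adjusted p = 0.0339) but stood at 0.47 without tumor 7 and also lost its call without tumor 9 or kidney 2, 4 or 8, and the phospholipase Plcg2 was lower by a log2 fold change of -1.70 (SE 0.31, adjusted p = 0.000105), with 8 tumors below every normal kidney. The TREM2 ligands Apoe and Clu went opposite ways. Apoe rose (1.38, SE 0.23, adjusted p = 3.77e-05) with medians of 3105 and 1060 CPM, and Clu fell (-3.84, SE 0.68, adjusted p = 8.97e-05) with every tumor below every normal kidney. Kidney 7, with high tubule injury genes, had the most Clu, at 4834 CPM. Without this kidney the log2 fold change of Clu was -3.20.

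Complement genes that act with or after C1q were measured too. The proteases that join C1q in the C1 complex, C1ra (0.37) and C1s1 (0.14), and their inhibitor Serping1 (-0.20) did not pass, with adjusted p of 0.289, 0.783 and 0.728, and Serping1 passed as lower without tumor 7, at -0.79. C2, C4b and C3, which act after C1, were higher. C2 rose by 1.90 (SE 0.18, adjusted p = 2.15e-08) with no overlap between groups, C3 by 1.56 (SE 0.49, adjusted p = 0.0116) and C4b by 1.64 (SE 0.54, adjusted p = 0.0167), the last not called without tumor 7, at 0.99. Receptors for the released fragments, C3ar1 (1.54, SE 0.37, adjusted p = 0.00164) and C5ar1 (1.61, SE 0.60, adjusted p = 0.0319), were also higher, C5ar1 at 0.62 without tumor 7 and not called without that tumor or without kidney 1, 2, 3, 4, 6 or 10.

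Genes linked to heme and iron were measured as well, and whether they act on heme taken up by CD163 was not tested. Blvrb, a biliverdin reductase, rose by 2.60 (SE 0.36, adjusted p = 4.54e-06) and the iron exporter Slc40a1 by 1.73 (SE 0.20, adjusted p = 3.63e-07). For Blvrb all tumors, at 142 to 288 CPM, were above all normal kidneys, at 11.7 to 93.8 CPM. Hmox1, which opens the heme ring, ranged over 307 to 1904 CPM in the tumors, against 49.6 to 648 CPM, and did not pass (0.80, SE 0.41, adjusted p = 0.117). Hp, which encodes haptoglobin, did not pass either (2.15, SE 1.05, adjusted p = 0.096), with 2252 CPM in tumor 7 and a median of 43.3 CPM in tumors. Epithelial cells can express several of these partners, and the cell that makes them cannot be read from bulk RNA.

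Other macrophage genes, taken as lists of markers, were more often higher than lower. Of 26 core macrophage genes tested 10 were higher and 1 lower, beside 23.6% and 23.8% of all genes (median log2 fold change 0.89). The largest rises were those of the scavenger receptor Msr1 (2.12, 0.86 and not called without tumor 7), the sialoadhesin Siglec1 (1.95), the phagocytosis checkpoint Sirpa (1.86) and the beta-glucan receptor Clec7a (1.54). Sirpa had all tumors, at 98.3 to 316 CPM, above all normal kidneys, at 21.7 to 85.8 CPM. The transcription factor Irf8 was lower (-0.65, SE 0.22, adjusted p = 0.0178). The remaining 15 did not pass, among them Spi1, Cx3cr1, Aif1, Fcer1g, Itgam and Mertk.

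Of 17 tested genes of resident and alternatively activated macrophages 12 were higher and 0 lower, beside the same 23.6% and 23.8%, with a median log2 fold change of 2.40. Lyve1, a hyaluronan receptor of perivascular macrophages, rose by 3.23 (SE 0.72, adjusted p = 0.000857) and by 2.13 without tumor 7. Pf4, a chemokine, rose by 3.09 (adjusted p = 0.00745) but stood at 0.90 without tumor 7 and was then not called. Igf1 (2.86) and Selenop (2.75) had every tumor above every normal kidney. Selenop, a selenoprotein that many cell types make, stood at a median of 11240 CPM in tumors and held most of the summed level of the list, which had a median of 12540 CPM. Of 15 genes listed for tumor-associated and lipid-associated macrophages 7 were higher and 1 lower, again beside 23.6% and 23.8% (median 0.67). Gpnmb rose most, by 6.86 (SE 0.75, adjusted p = 2.06e-07) and by 6.96 without tumor 7. It ranged from 0.63 to 21.5 CPM in normal kidneys and from 139 to 1538 CPM in tumors. Lgals3 (3.10), the elastase Mmp12 (2.84) and Nos2 (1.92) followed, and the lipase Lpl fell (-2.97, SE 0.31, adjusted p = 1.16e-07). Spp1, Cd9, Arg1, Plin2, Cd36, Olfml3 and Il1b did not pass.

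**Figure D5:**
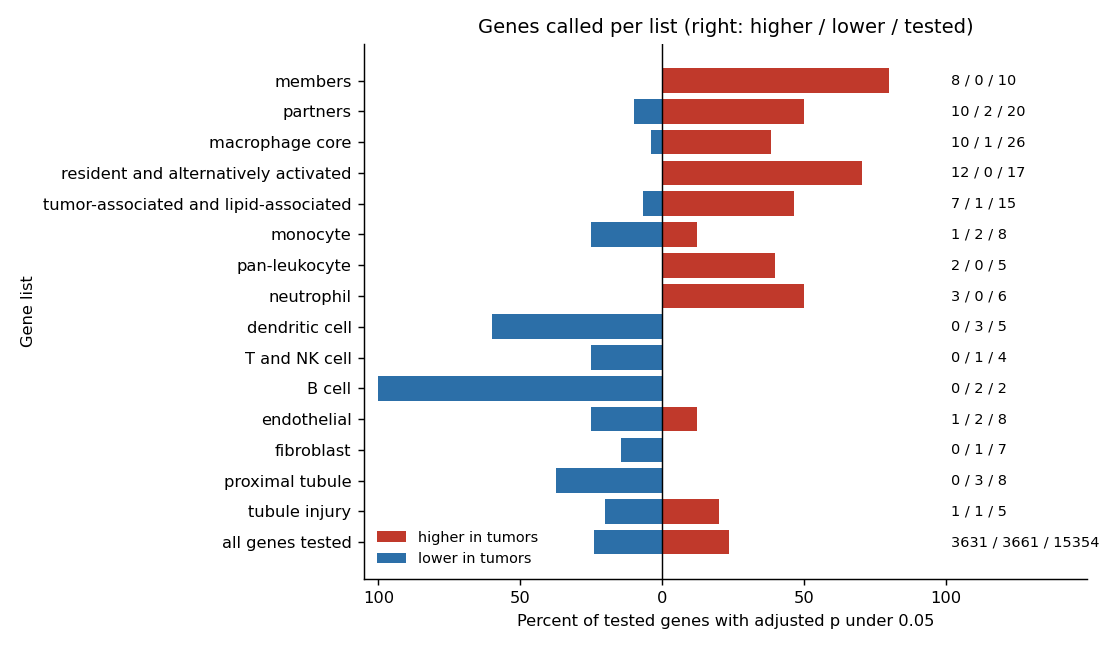
Percent of the tested genes of each list (y axis) with an adjusted p under 0.05, higher in tumors to the right in red and lower to the left in blue, with the counts of higher, lower and tested genes at the right edge. The 10 macrophage genes, called members, had 8 higher and 0 lower. Dendritic, T and NK, and B cell genes had none higher, of 5, 4 and 2 tested. Of all genes tested 23.6% were higher and 23.8% lower.

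Markers of other leukocytes went in different directions. The counts of these short lists stand beside 23.6% higher and 23.8% lower among all genes tested. Ptprc, expressed by all leukocytes, ranged from 6.64 to 36.5 CPM in tumors and from 6.28 to 20.4 CPM in normal kidneys and did not pass (0.31, SE 0.29, adjusted p = 0.407). Of the 5 pan-leukocyte genes tested, Cd53 (1.32, adjusted p = 0.0324) and Laptm5 (0.95, adjusted p = 0.023) were higher. Without tumor 7 they stood at 0.32 and 0.43 and were not called, and Cd53 also lost its call without kidney 1, 2, 4 or 8. Of 8 monocyte genes tested, Plac8 was higher (1.82) and the inflammatory monocyte genes Ly6c2 (-2.15) and Ccr2 (-0.80) were lower. The dendritic cell genes Flt3 (-2.34), Clec9a (-1.41) and Zbtb46 (-0.73) were lower, as were the B lineage genes Jchain (-3.43) and Cd79b (-1.99) and the T cell gene Cd8a (-1.35, adjusted p = 0.045). Ccr2 lost its call without tumor 2, 4, 5, 6, 7 or 8 or kidney 3, 6 or 10, and Cd8a without tumor 2, 5, 6, 8 or 10 or kidney 1, 2, 3, 6 or 10. Neutrophil genes summed to 4.33 to 531 CPM in the tumors, against 1.98 to 44.6 CPM in the normal kidneys. Of 6 tested, the collagenase Mmp8 (3.59, adjusted p = 0.000183), the lectin receptor Clec4d (3.03, adjusted p = 0.0186) and the cytokine receptor Csf3r (1.88, adjusted p = 0.0113) were higher. Without tumor 7 they stood at 2.96, 0.92 and 0.73, and Mmp8 alone of the 3 was then called (adjusted p = 0.000237). Neutrophils also express Lyz2, and their part in its result was not tested.

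Fibroblast genes, at 125 to 7010 CPM in tumors and 257 to 1342 CPM in normal kidneys, and endothelial genes, at 387 to 1075 and 517 to 670.4 CPM, were highest among tumors in tumor 7 and in tumor 9, respectively. The fibroblast receptor Pdgfra was lower (-1.62, adjusted p = 0.034), by -3.07 without tumor 7, and lost its call without any other tumor or without kidney 8. Of the endothelial genes, the cadherin Cdh5 was higher (0.83) and the receptor Tek (-1.70) and the transcription factor Erg (-0.52) were lower, Erg in only 5 of the 20 fits that leave out 1 library, those without tumor 7 or 9 or kidney 5, 7 or 9. The proximal tubule genes Slc5a2 (-3.54), Miox (-3.24) and Aqp1 (-2.62) were lower. Of the tubule injury genes, Vcam1 was higher (1.93) and Lcn2 lower (-5.00, and -4.39 without kidney 7). The injury genes summed to 2040 to 5086 CPM in kidneys 5, 7 and 8 and to 264 to 1612 CPM in tumors. In the other normal kidneys they summed to 28.2 to 316 CPM. No fit left out kidneys 5, 7 and 8 together, so the fall of Lcn2 is not one against uninjured kidneys.

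The genes most like the members were those whose deviations from their own group mean, over 20 libraries, followed the mean deviation of the 10. Among the first were Arhgdib (r = 0.95), Ms4a6b (0.95), Fermt3 (0.945), Cyth4 (0.94), Ifitm3 (0.94), Cavin3 (0.94), Ms4a6c (0.93), Selplg (0.93) and Tyrobp (0.93). Without tumor 7 these r were 0.87 to 0.91. All 20 libraries share the scaling, and tumor 7 and kidney 9 carry much of the range. Of these named genes, Cyth4 (0.67, adjusted p = 0.039), Cavin3 (0.97, adjusted p = 0.0114) and Ms4a6c (1.24, adjusted p = 0.0462) were higher in tumors and the others were not called.

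Cd68 kept other company. In the same measure its deviations correlated with those of the other 9 members at -0.30 (Csf1r) to 0.51 (Trem2). The genes most like it, chosen after its values were seen, were Tagln2 (r = 0.93), Clic1 (0.92) and Capg (0.90), at 0.89, 0.85 and 0.88 without kidney 7.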

How the data were processed

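The tissue had been flash frozen and cryo-pulverized, RNA was extracted with Trizol, and libraries were prepared by poly A enrichment and sequenced as read pairs at Novogene. The values are whole-number counts per gene, deposited by the authors without normalization. The labels name mm10 as the genome build. The aligner, the counting tool, the annotation release and the use of strand are not given in the sources used here. The authors' own analysis, run in the NIDAP portal, was not repeated. All 20 columns of the table were matched to samples by the sample descriptions, and 0 columns of per-sample values were left unused. No libraries of the same group agreed within sampling noise, as a chi-square comparison of all 90 such pairs gave at least 12.8 per degree of freedom. Which tumor and which kidney came from the same animal is not stated, and p-values measure the spread between these samples.

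Counts were scaled with TMM factors in edgeR 4.0.16 (R 4.3.3), and low genes were dropped with filterByExpr at a minimum count of 10. The main test was the quasi-likelihood test of edgeR, fitted to the 20 libraries together without covariates, with Benjamini-Hochberg adjustment over the 15354 genes tested. A gene was called at an adjusted p under 0.05. CPM values use the TMM-scaled library sizes, and log2 CPM a prior count of 2. Values relative to Csf1r were fitted with limma 3.58.1 on the difference of log2 CPM in each library. Ratios and correlations used permutation tests with 100000 resamples in scipy 1.17.1 (Python 3.11.15). The tests were tried on simulated counts first. DESeq2 1.42.0 and limma-voom, other scalings, other filters and the removal of libraries were run as alternatives. Total counts per library set the counting error, which is a lower limit of the technical error since reads carry no molecular identifiers.

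The 10 genes, the partner genes and the marker lists were chosen with earlier results of these data known, so counts over them are descriptions. Named are all members, all tested partner genes, in each other list up to 4 called genes with the largest log2 fold change in each direction, and the 10 genes most like the members, of which 1 is not reported here. Genes named as not called stand for the rest of their list, and genes like Cd68 were added after the data were seen. Pan-leukocyte genes had 2 of 5 tested higher, endothelial genes 1 of 8 higher and 2 lower, fibroblast genes 1 of 7 lower, proximal tubule genes 3 of 8 lower, and tubule injury genes 1 of 5 higher and 1 lower. Neutrophil genes had 3 of 6 higher. All of these counts stand beside 23.6% higher and 23.8% lower among all genes tested, and no list was tested as a set. Promoter sequences are those of RefSeq on GRCm38.p6, searched for GAGGAAG on both strands.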

Additional observations from a re-analysis of the deposited data

Results flagged for a closer look

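Of 20 sets of values, each the 10 tumors or the 10 normal kidneys for 1 of the macrophage genes, 6 held a library that stood apart. Its gap to its nearest neighbour was over 0.466 of the whole range on the log2 scale, where chance gives about 1 in 20 sets. The sets share their libraries and the genes vary together, so the 6 are not independent and cannot be set against that rate. Normal kidney 9 was the highest normal kidney for C1qa, at 6.90 log2 CPM with the next at 5.33, for C1qb, at 7.01 with the next at 5.48, and for C1qc, at 6.72 with the next at 5.14. These 3 genes lie side by side on chromosome 4. Normal kidney 5 was lowest for Adgre1, at 0.88 log2 CPM with the next at 2.22. Tumor 7 was the highest tumor for C1qc, at 8.15 log2 CPM with the next at 6.47, and for Trem2, at 5.045 with the next at 3.012. The same tumor held the highest sums of neutrophil and fibroblast genes and the lowest sum of proximal tubule genes among tumors, at 1020 CPM. What sets these libraries apart was not tested.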

How the results depend on the processing

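Between 6 and 10 of the 10 macrophage genes were higher in tumors under the alternative settings at an adjusted p under 0.05, and 0 were lower under any of them. By a log2 fold change past 1 with an unadjusted p under 0.001, 3 were called (Cd68, Lyz2 and Trem2), with 5 partner genes, 4 core genes and 5 resident genes higher, 0 core and 0 monocyte genes lower, and 1359 of all genes higher and 1571 lower. Leaving out each library in turn gave 6 to 10 members higher, 6 to 12 partner genes higher (6 without tumor 7), 1 or 2 core genes lower (2 without tumor 7), 1 to 3 tumor-associated genes lower (3 without tumor 7), 1 or 2 monocyte genes higher (2 without kidney 7), 1 or 2 monocyte genes lower (1 without kidney 10), and 1 to 3 members higher relative to Csf1r (3 without kidney 7). In limma-voom 6 members and 6 resident genes were higher and 2 tumor-associated genes lower. With quality weights 11 tumor-associated genes were higher, and 4 partner, 4 core and 3 tumor-associated genes lower. Upper-quartile factors gave 2 core and 2 tumor-associated genes lower, DESeq2 2 tumor-associated genes lower, and no filter on low counts 1 monocyte gene lower. Without tumor 7 and normal kidney 9 together, 2 core and 3 tumor-associated genes were lower. With Ptprc as the reference 3 members were higher. The cause of these shifts was not tested. Upper-quartile factors and library totals moved the median of all genes from -0.02 to -0.14, and no macrophage gene changed direction. The correlation of Cd163 with Csf1r in tumors turned to -0.12 without tumors 7 and 9.

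Tumors and normal kidneys share the numbers 1 to 10, but no label ties a number to a mouse. The deviations of same-numbered libraries correlated at 0.191 to 0.377 in 9 pairs and at -0.143 in pair 9. Differently numbered libraries were not compared in this way, so these values do not decide whether the numbers pair the samples. The main test left the numbers out. With a replicate block all the same, 8 members were higher. C1qa, C1qb and C1qc were called (adjusted p 0.0107, 0.0145 and 0.00835), and Mrc1 (1.03, adjusted p = 0.0975) and Cd163 (1.28, adjusted p = 0.121) were not, nor were the partners C4b (adjusted p = 0.135) and Syk (adjusted p = 0.154). The block gave 3 tumor-associated genes lower, 2 monocyte genes higher and 2 members higher relative to Csf1r, Cd68 and Trem2 (adjusted p = 0.0333).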
